A study of Mus musculus with 12 samples.

Results

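Bc1 (brain cytoplasmic RNA 1) is a short noncoding RNA of neurons, and it was described here together with Fmr1, Cyfip1 and Cyfip2, whose proteins have been named as its partners in the control of translation. These 4 genes are 4 of the 17202 genes whose RNA was counted in the cortex of 12 mice, and each of them passed the filter on low values. Bc1 was chosen by its measured values in these mice, so its levels are given as a description without a test. Fmr1, Cyfip1 and Cyfip2 were taken with it as its stated partners, and their differences between groups were tested.

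The mice, males on a C57BL/6J background (C57Bl6 in the labels), formed 4 groups of 3. VEH-WT and VERCUR-WT are wild-type mice on vehicle and on the co-treatment, and VEH-CD and VERCUR-CD are CD mice on the same. CD (complete deletion) mice, a model of Williams-Beuren syndrome, have lost 1 of their 2 copies of the chromosome 5 segment from Gtf2i to Fkbp6. They came from a cross with a Thy1-YFP line, in which a transgene labels pyramidal neurons. Which of the 12 mice carried it is not given in the labels. VERCUR is curcumin, a phenol of turmeric, with verapamil, a blocker of calcium channels, both taken by mouth with the drinking water. By the labels the doses were 60 mg/kg/day for curcumin and 10 mg/kg/day for verapamil, from 8 weeks of age, with 1 month of drinking and an end at 16 weeks, while the study's methods give a lower dose of verapamil and an earlier end. The methods gave vehicle mice water with the solvent DMSO, and the labels call them untreated. In all groups the tissue was frontal cortex, called cortex in the labels. The question put to the data was how Bc1 and its partners differed with the deletion, with the co-treatment, and between the genotypes under co-treatment.

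RNA polymerase III makes Bc1 from its own promoter, which lies inside the transcribed sequence and descends from a transfer RNA gene for alanine. In rodents the RNA is carried into dendrites, where it is known to hold back the start of translation by binding the helicase eIF4A (Eif4a1), its cofactor eIF4B (Eif4b) and the poly(A)-binding protein (Pabpc1). Fmr1 encodes FMRP, an RNA-binding repressor of translation at synapses whose loss causes fragile X syndrome, and a direct contact of FMRP with BC1 RNA has been reported and disputed. CYFIP1 and CYFIP2, made from Cyfip1 and Cyfip2, bind FMRP and are also subunits of the WAVE complex, which drives actin assembly downstream of Rac1.

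Bc1 (ENSMUSG00000115783.1, annotated as a lincRNA with 1 exon) lies on the plus strand at chr7:144914470-144914637 of GRCm38, and the GENCODE M21 annotation has no gene that overlaps it. Its 168 bases are shown because their layout bears on how its reads were counted. The capitals mark bases 77 to 128, a stretch of 52 bases of which 86.5% are A, with a longest run of 23 A.
Bc1: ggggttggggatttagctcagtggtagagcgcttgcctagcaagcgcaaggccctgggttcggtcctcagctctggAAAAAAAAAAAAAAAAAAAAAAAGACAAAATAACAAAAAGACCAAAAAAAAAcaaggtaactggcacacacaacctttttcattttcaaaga
The 76 bases before this stretch come from the transfer RNA and are shared with the ID elements, a repeat family of rodent genomes, and the 40 bases after it are unique. The annotated copy Bc1-ps1 (chr7:93660238-93660555, minus strand, not among the 17202 genes) holds a stretch that matches 72 of the 76 bases, or 94.7%. It is shown with the 4 differing bases in capitals.
Bc1-ps1: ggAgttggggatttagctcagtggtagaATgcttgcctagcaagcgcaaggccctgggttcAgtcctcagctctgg
Of the 55450 annotated genes, 35 others had a transcript with at least 25 bases in a row of the 5′ part on either strand, 17 of them on the same strand as Bc1. No transcript shared 25 bases with the 3′ part. The core of the A box (GCNNANNGG) matched the plus strand once, at bases 16 to 24, and the B box (GTTCGNNCC) once, at bases 58 to 66, and neither matched the minus strand. On either strand, these letters were found in 48.1% and 1.42% of the 32851 RefSeq promoter windows, which reach from 250 bases before to 50 bases after each start. In the 50 bases after the start, on the strand of the gene alone, the shares were 5.34% and 0.0883%. The B box of Bc1 lies beyond such a window, so these shares are not a like background for it. A letter match is a description and not a binding site.

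The table held each mouse's normalized count, which is the number of reads on a gene divided by 1 factor per library. From the steps between low values, between 40287647 and 56480949 reads had been counted per mouse. Gtf2i, which lies in the deleted segment, was between 11580 and 12750 normalized counts in the 6 WT mice and between 5916 and 6729 in the 6 CD mice, as their labels would have it. Markers of neurons were high in every mouse. Markers of oligodendrocytes summed to between 59230 and 170200 outside VERCUR-CD and to between 90440 and 130700 in VERCUR-CD. The mitochondrial share of the total was 4.61% in VERCUR-CD replicate 2, the highest of the 12 mice, and between 3.09% and 4.26% in the rest.

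Bc1 was higher in each co-treated CD mouse than in any other mouse. In VEH-WT mice, it was 598.5, 349.9 and 867.4 normalized counts (mean 605.3 ± 259, SD, n = 3), which rested on 534, 303 and 998 reads. In VEH-CD mice, it was 757.5, 663.1 and 767.8 (mean 729.5 ± 57.7, SD, n = 3). These 3 values lay inside the range of the VEH-WT mice, whose spread was wide because replicate 2 was low and replicate 3 was high. In VERCUR-WT mice, Bc1 was 861.7, 1029 and 1073 (mean 987.9 ± 111, SD, n = 3), above the VEH-CD mice, while replicate 1 overlapped with the highest VEH-WT mouse. In VERCUR-CD mice, Bc1 was 4564, 2202 and 2832 (mean 3200 ± 1220, SD, n = 3), on 5231, 2449 and 2943 reads. The lowest of these was 2.05 times the highest of the other 9 mice, and no mouse of another group came near the 3.

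The group means of Bc1 were lowest in VEH-WT, followed by VEH-CD, then VERCUR-WT, with VERCUR-CD highest. VEH-WT and VEH-CD did not differ beyond their spread, VEH-CD and VERCUR-WT were neighbours without overlap, and the step to VERCUR-CD was the largest. The mean of the VERCUR-CD mice was 5.29 times that of VEH-WT, 4.39 times that of VEH-CD and 3.24 times that of VERCUR-WT mice. Within VERCUR-CD the highest mouse was 2.07 times the lowest, and over all 12 mice the range was 13-fold. Complete separation of the 3 VERCUR-CD mice above the other 9 was seen in 48 of the 17111 genes tested, or 0.281%, and this was the pattern on which Bc1 was chosen. Among these 48 genes Bc1 had the widest gap. Fanci, with a lowest VERCUR-CD mouse 1.41 times the highest other mouse (20.94 against 14.85 normalized counts), came next, at a far lower level. It is named from this ranking after its values were seen.

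**Figure D1:**
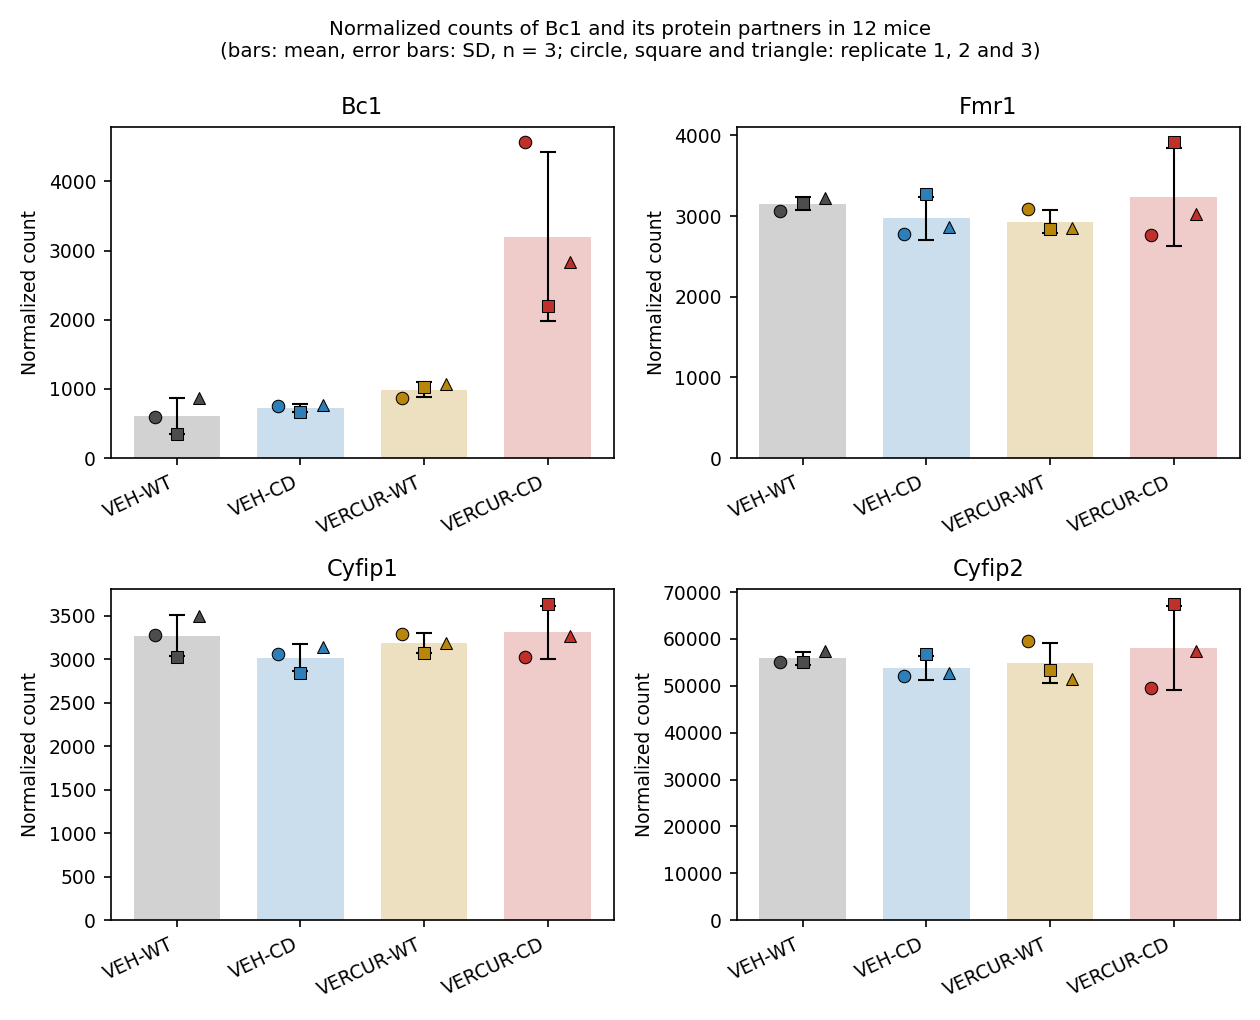
Normalized counts (vertical axes, starting at 0) of Bc1, Fmr1, Cyfip1 and Cyfip2 in the 4 groups, with a symbol for each mouse, bars for the mean and error bars for the SD of 3 mice. The 3 VERCUR-CD mice sit between 2202 and 4564 for Bc1, above all others, while the groups overlap for the other 3 genes.

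On the log2(normalized count + 1) scale, from a limma fit of all 12 mice, Bc1 differed by 2.07 (standard error 0.29) between VERCUR-CD and VEH-CD, a 4.19-fold difference, and by 1.63 (standard error 0.29) between VERCUR-CD and VERCUR-WT, a 3.1-fold difference. Between the genotypes on vehicle, VEH-CD against VEH-WT, the difference was 0.36 (standard error 0.29), which the spread between mice covers. Between the WT groups, VERCUR-WT against VEH-WT, it was 0.80 (standard error 0.29). Without VEH-WT replicate 2, the low mouse, these last values became 0.01 and 0.45, and without VEH-WT replicate 3 they became 0.67 and 1.10. The treatment difference in CD mice exceeded that in WT mice by 1.27 (standard error 0.41). Over both treatments CD mice were higher than WT mice by 1.00 (standard error 0.20), and over both genotypes co-treated mice were higher than vehicle mice by 1.43 (standard error 0.20). These averages join unequal parts, 0.36 and 1.63 for genotype and 0.80 and 2.07 for treatment, of which the larger each time is the one with the VERCUR-CD mice. In the comparison of VERCUR-CD with VEH-CD only 6 of the 17111 genes had a higher log2 fold change than Bc1, and in VEH-CD against VEH-WT 992 had.

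A gene was called when its adjusted p from limma (two-sided, Benjamini-Hochberg over 17111 genes) was under 0.05 with a difference of over 25% in normalized count, up or down, or, for the interaction, when the adjusted p alone was under 0.05. Among all genes, 55 (0.321%) were called between CD and WT over both treatments, 44 (0.257%) between VEH-CD and VEH-WT and 25 (0.146%) between VERCUR-CD and VERCUR-WT. For VERCUR against VEH, VERCUR-CD against VEH-CD, VERCUR-WT against VEH-WT and the interaction, limma called 0 genes (0%), and 506, 605, 893 and 1035 genes had an unadjusted p under 0.05. None of the 4 genes was called in any of the 7 comparisons, Bc1 included. For Bc1 this says only that it stood below a threshold set over all genes, since it was selected on these same values.

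No difference of Fmr1 between groups passed the test. In normalized counts, the VEH-WT mice had 3067, 3161 and 3225, with 2772, 3279 and 2862 in VEH-CD, 3093, 2842 and 2857 in VERCUR-WT and 2765, 3914 and 3029 in VERCUR-CD mice. Every group overlapped with every other, and both the lowest and the highest of the 12 mice were VERCUR-CD mice. The difference of VERCUR-CD against VEH-CD was 0.11 on the log2 scale (standard error 0.11, 95% interval -0.12 to 0.34, adjusted p = 0.878, limma, Benjamini-Hochberg). That of VEH-CD against VEH-WT was -0.09 (standard error 0.11, 95% interval -0.32 to 0.15, adjusted p = 0.773). Fmr1 has its gene on chromosome X, at chrX:68678541-68717963 on the plus strand.

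Cyfip1 (chr7:55841745-55932602, plus strand) took the values 3275, 3029 and 3498 in the VEH-WT mice, 3060, 2841 and 3141 in VEH-CD, 3294, 3073 and 3189 in VERCUR-WT and 3028, 3630 and 3262 in VERCUR-CD mice. It shares its chromosome with Bc1 but overlapped between all groups. The difference of VERCUR-CD against VEH-CD was 0.13 (standard error 0.08, 95% interval -0.03 to 0.30, adjusted p = 0.867, limma, Benjamini-Hochberg), and its unadjusted p of 0.111 was the smallest of the 21 for the 3 partners.

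Cyfip2 (chr11:46193850-46312859, minus strand) stood far above the other partners. The VEH-WT mice had 55080, 55090 and 57400, with 52180, 56860 and 52700 in VEH-CD, 59610, 53440 and 51480 in VERCUR-WT and 49470, 67410 and 57400 in VERCUR-CD mice. The difference of VERCUR-CD against VEH-CD was 0.10 (standard error 0.09, 95% interval -0.11 to 0.30, adjusted p = 0.878, limma, Benjamini-Hochberg). Again the lowest and the highest mice were both VERCUR-CD mice.

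Over the 7 comparisons and 3 partners, the 21 differences lay between -0.12 and 0.22 on the log2 scale, and the lowest adjusted p was 0.578. Their 95% intervals together ran from 0.791-fold to 1.46-fold, which leaves the 4.19-fold difference of Bc1 outside all of them and smaller changes inside. VERCUR-CD replicate 2 had the highest value of all 12 mice for each of the 3 partners and the highest mitochondrial share. Without it, the difference of VERCUR-CD against VEH-CD was -0.03 for Fmr1, 0.06 for Cyfip1 and -0.02 for Cyfip2. Whether the mitochondrial share had a part in these values was not tested.

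**Figure D2:**
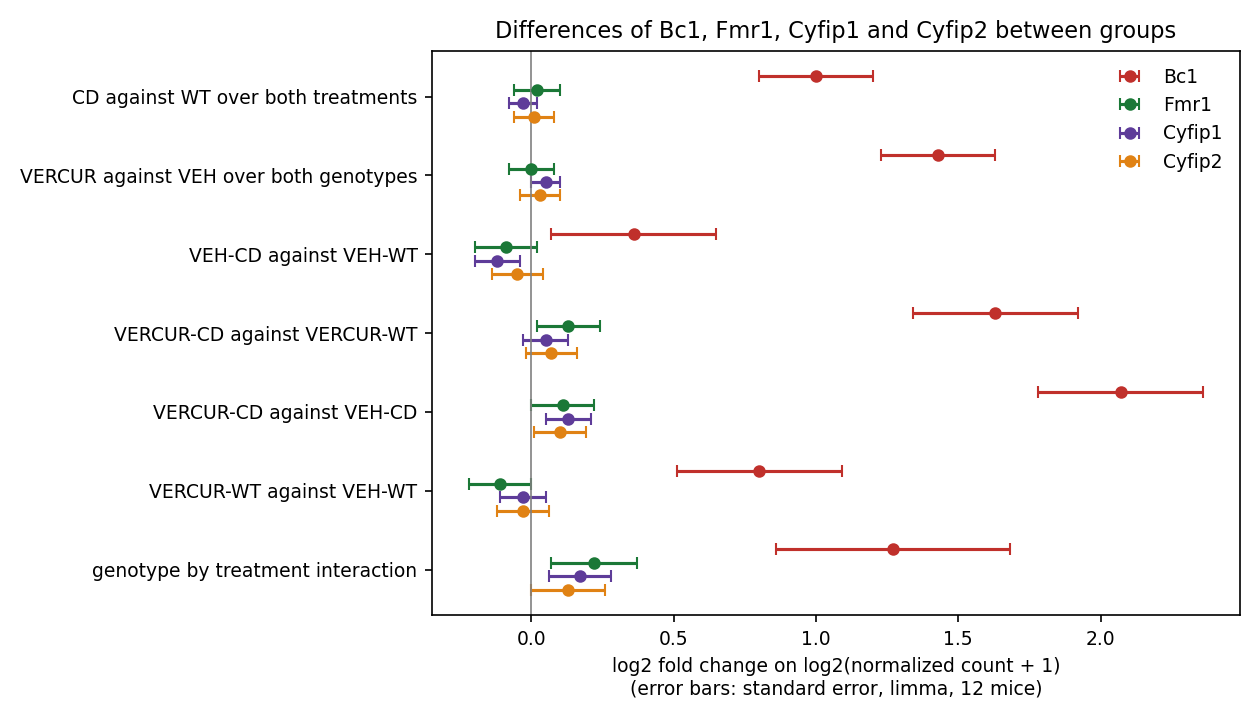
Log2 fold changes on the log2(normalized count + 1) scale (horizontal axis) of the 4 genes in the 7 comparisons, with standard errors from the limma fit of 12 mice. Bc1 reaches 2.07 in VERCUR-CD against VEH-CD, and the partners stay between -0.12 and 0.22 in all comparisons.

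Per kilobase of annotated exon, Bc1 was at 3600 normalized counts in VEH-WT and at 19000 in VERCUR-CD mice. Cyfip2 was at 7860 and 8180, Fmr1 at 351 and 361, and Cyfip1 at 274 and 277. By this division alone, Bc1 lay under Cyfip2 in VEH-WT mice and over it in VERCUR-CD mice. Bc1 is 168 bases long, and how much of so short an RNA a library keeps, and how evenly, was not tested. Its level relative to that of the longer genes therefore cannot be read from these values.

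Because the VERCUR-CD mice formed a cluster of their own in Bc1, its relation to the partners across mice was taken over the 9 mice outside that group. Pearson's r of Bc1 on the log2 scale was -0.46 with Fmr1 (exact permutation p = 0.219, n = 9), 0.32 with Cyfip1 (exact permutation p = 0.393) and -0.17 with Cyfip2 (exact permutation p = 0.666). Adjusted over these 3 relations with the Benjamini-Hochberg method, the exact permutation p values were 0.59, 0.59 and 0.666. Spearman's rho was -0.37 (exact permutation p = 0.336), 0.47 (exact permutation p = 0.213) and -0.23 (exact permutation p = 0.552), and without the 2 mice farthest from the median of Bc1 r was -0.30, 0.22 and 0.02. None passed the threshold. These 9 mice come from VEH-WT, VEH-CD and VERCUR-WT, and the permutations ran across these groups. Differences between the groups are therefore mixed into these values. With the group means taken out, over all 12 mice, r was -0.55 with Fmr1, 0.02 with Cyfip1 and -0.55 with Cyfip2 (permutation p = 0.0639, 0.95 and 0.062, adjusted 0.0958, 0.95 and 0.0958). These permutations mixed deviations across groups and did not allow for the group means taken out. Their p values are therefore likely too low, and these r are given as a description. In the VERCUR-CD group, the mouse with the highest Bc1 (replicate 1) had the lowest value of its group for each of the 3 partners, and the mouse with the lowest Bc1 (replicate 2) had the highest. With 3 mice this is a description.

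The genes of the surrounding pathways were described by lists. No gene of the 7 lists passed the test in any of the 7 comparisons, and the medians given here stand against a median of 0.00 over all genes in each comparison except the interaction, where it was 0.01. Among 8 proteins known to bind BC1, the median difference of VERCUR-CD against VEH-CD was 0.03 on the log2 scale, and that of CD against WT was 0.09, with 8 of 8 positive and 3 at an unadjusted p under 0.05, where 9.64% of all genes tested stood (limma). Pabpc1 was the member with the largest difference between CD and WT. The mean for VEH-WT was 9314 ± 277 normalized counts, with 10440 ± 414 for VEH-CD, 9843 ± 299 in VERCUR-WT and 10890 ± 182 in VERCUR-CD mice (SD, n = 3). Its 6 CD values lay above its 6 WT values by a narrow margin, a separation that 0.573% of the genes tested showed. The log2 difference was 0.16 (standard error 0.04, adjusted p = 0.133, limma, Benjamini-Hochberg), and in VERCUR-CD against VEH-CD, where Bc1 differed most, it was 0.06 (standard error 0.05, adjusted p = 0.867). Purb, a single-stranded nucleic acid-binding protein and the most abundant of the list, was at 39190 ± 6890 in VERCUR-CD and 32700 ± 2150 in VEH-CD mice (log2 difference 0.25, standard error 0.11, adjusted p = 0.867).

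Around FMRP, the 9 paralogs and protein partners had a median of -0.00 in VERCUR-CD against VEH-CD. Caprin1, a neuronal granule protein and the most abundant of them, differed by 0.03 (standard error 0.09) and Nufip2, an FMRP-binding protein, by 0.31 (standard error 0.16, adjusted p = 0.867, limma, Benjamini-Hochberg). The 10 genes of the WAVE complex and Rac1, which work with the CYFIP proteins, had a median of 0.07, with Nckap1, the subunit that pairs with CYFIP, at 0.06 (standard error 0.08). Abi3 was the WAVE gene with the largest difference between CD and WT (-0.40, standard error 0.11, adjusted p = 0.251). The 11 known mRNA targets of FMRP had a median of 0.10, with 9 of 11 positive. The VERCUR-CD mice were split, however. In replicates 1, 2 and 3 these targets summed to 458800, 575000 and 530300 normalized counts, against 462400 to 526500 in the other 9 mice. Camk2a, a synaptic kinase and the most abundant, differed by 0.21 (standard error 0.10). Arc, an activity-induced gene of synapses, varied widely. Its mean was 26590 ± 7030 in VEH-WT mice, 6157 ± 3110 in VEH-CD, 11850 ± 8920 in VERCUR-WT and 12650 ± 4090 in VERCUR-CD mice (SD, n = 3). Its difference of VEH-CD against VEH-WT was -2.24 (standard error 0.69, adjusted p = 0.233).

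No gene of the transcription machinery of Bc1 passed the test. The 24 genes of RNA polymerase III and its factors summed to between 34400 and 34690 normalized counts in the VERCUR-CD mice and to between 34120 and 35850 in the other 9. Their median difference of VERCUR-CD against VEH-CD was -0.02, with 11 of 24 positive. Gtf3c1, which encodes the subunit of TFIIIC that binds the internal promoter, differed by -0.09 (standard error 0.07, adjusted p = 0.867, limma, Benjamini-Hochberg), and Gtf3c4, also of TFIIIC, by 0.14 (standard error 0.08, adjusted p = 0.867).

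Other small products of RNA polymerase III did not show the level of Bc1 in VERCUR-CD mice. Of 9 listed, 3 were among the genes counted. Rn7s1, the 7SL RNA of the signal recognition particle, was 213, 207.8 and 183.4 in VEH-WT, 152, 170.4 and 246.8 in VEH-CD, 226.7, 326.9 and 257 in VERCUR-WT and 221.6, 239.2 and 283.9 in VERCUR-CD mice. Rn7s2 had identical values in every mouse, so the reads of these near-identical copies cannot be told apart. Rn7s1 was 0.41 higher on the log2 scale in co-treated than in vehicle mice over both genotypes (standard error 0.13, adjusted p = 1, limma, Benjamini-Hochberg) and differed by 0.00 in the interaction (standard error 0.26), where Bc1 differed by 1.27. Rn7s1 was also 0.41 higher in VERCUR-CD against VEH-CD and in VERCUR-WT against VEH-WT. Each had an unadjusted p under 0.05 (limma), where 3.54% and 5.22% of all genes tested stood, and neither passed the test. Rn7sk, the 7SK RNA that restrains transcription elongation, was 171.9, 100.7 and 136.7 in VERCUR-CD and 214.8, 151 and 117.4 in VEH-CD mice. The VERCUR-CD mice did not lie above the other 9 in Rn7s1 or Rn7sk. That separation, on which Bc1 was chosen, was seen in only 0.281% of the genes tested, so its absence from these RNAs says little. The 8 long noncoding RNAs of brain, made by RNA polymerase II, had a median of -0.10 in VERCUR-CD against VEH-CD, with Meg3, the most abundant, at -0.16 (standard error 0.27) and Kcnq1ot1 at -0.25 (standard error 0.48).

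**Figure D3:**
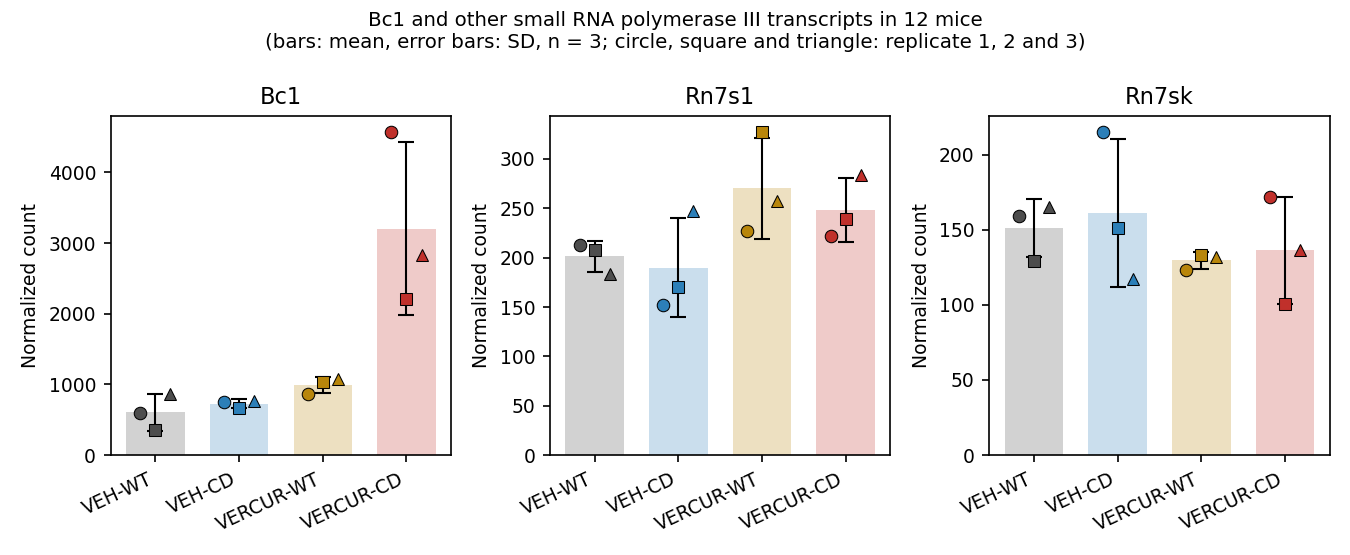
Normalized counts (vertical axes, starting at 0, each with its own range) of Bc1, Rn7s1 and Rn7sk by group, with a symbol per mouse, the mean as a bar and the SD of 3 mice as the error bar. Rn7s1 lies between 221.6 and 283.9 and Rn7sk between 100.7 and 171.9 in VERCUR-CD mice. Both ranges overlap with the other groups, and the lowest Rn7sk value of the 12 mice is the 100.7 of VERCUR-CD replicate 2.

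The neighbourhood of Bc1 was examined next. Within 500 kb of it, 10 genes were among those counted (Shank2, Cttn, Ppfia1, Fadd, Ano1, Fgf3, LTO1, Ccnd1, Tpcn2 and Mrgprf). Their differences of VERCUR-CD against VEH-CD lay between -0.82 and 0.20 on the log2 scale (lowest adjusted p = 0.867, limma, Benjamini-Hochberg). For 0 of the 10 did the VERCUR-CD mice lie above the other 9. Only 0.281% of all genes tested showed this separation, so a count of 0 does not set these genes apart. LTO1, on the same strand and only 463 bases beyond the end of Bc1, was 709.3, 600.7 and 656.3 normalized counts in VERCUR-CD and 599.8, 689.6 and 658.8 in VEH-CD mice. That is a difference of 0.01 (standard error 0.09). Ccnd1, the gene of cyclin D1, differed by 0.07 (standard error 0.08) at a distance of 15.3 kb. Of the 35 genes that share 25 bases with the 5′ part of Bc1, 27 were tested. Their median difference of VERCUR-CD against VEH-CD was 0.00, from -0.41 to 0.34, with 14 of 27 positive and 0 called by limma (1 at an unadjusted p under 0.05). The counting rule for reads with several matches is not given in the sources used here.

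**Figure D4:**
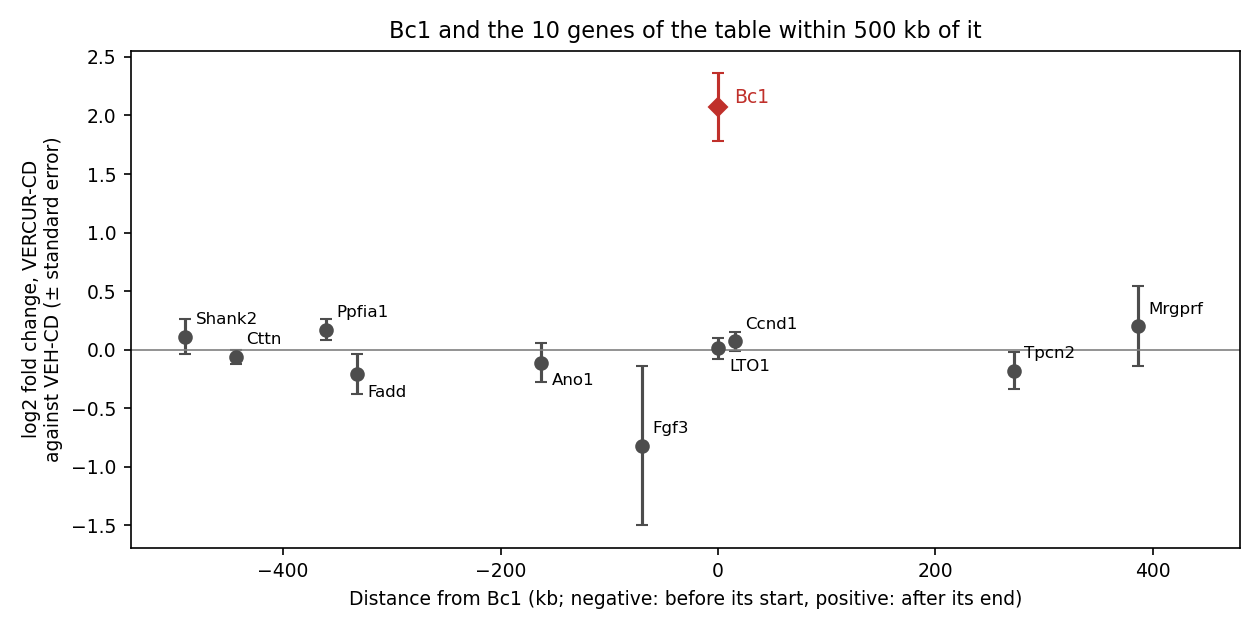
Log2 fold change of VERCUR-CD against VEH-CD (vertical axis, with standard errors from limma) by distance from Bc1 in kilobases (horizontal axis) for Bc1 and the 10 counted genes within 500 kb. Bc1 stands at 2.07, and its neighbours lie between -0.82 and 0.20.

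The genes most like Bc1 across the 12 mice were found by Pearson's r on the log2 scale, as a description over mice that share a group structure. The 5 highest were Pax6, a transcription factor of neural progenitors (r = 0.88), Zfp53 (0.83), Chp2 (0.82), Ccdc190 (0.82) and Thumpd2 (0.82). Over the 9 mice outside VERCUR-CD, r was 0.77 for Pax6, 0.67 for Zfp53, 0.58 for Chp2, 0.61 for Ccdc190 and 0.82 for Thumpd2. These 9 are among the 12 mice on which the 5 genes were picked, so a high r there is partly built in. Their steps were small beside that of Bc1: Pax6 was at 392 ± 40.5, 385 ± 8.44, 428.6 ± 39.4 and 472.9 ± 22.6 normalized counts in the 4 groups in the order of Bc1 (SD, n = 3). The 5 lowest were Gm32926 (-0.89), Ndrg4 (-0.88), Gm12231 (-0.85), Bcl2l1, an inhibitor of apoptosis (-0.85), and E530001F21Rik (-0.85). Of 17110 genes compared, 8 had r over 0.8 and 11 had r under -0.8. The partners were not among these extremes: 49.2% of genes had a lower r than Fmr1, 77.9% than Cyfip1 and 54.5% than Cyfip2.

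No sum over the marker lists given here, and neither the mitochondrial share nor the depth, separated the VERCUR-CD mice from the rest as Bc1 did. Neuron markers summed to between 405200 and 477700 normalized counts in VERCUR-CD and to between 421300 and 444400 in the other mice, and astrocyte markers to between 38400 and 45170 and between 32800 and 41960. Microglia markers (11460 to 12670 against 9903 to 12160), endothelial markers (5583 to 5804 against 4341 to 6645), red blood cell genes (17630 to 25560 against 17370 to 35550) and choroid plexus genes (38.67 to 71.54 against 19.45 to 106.1) overlapped as well, as did histone genes (4096 to 5074 against 4253 to 5500). In VERCUR-CD against VEH-CD, where Bc1 differed most, the 15 mitochondrial genes had a median log2 difference of 0.24, with 13 of 15 positive. Of the 15, 7 had an unadjusted p under 0.05 (limma), all of them higher, where 3.54% of all genes tested stood. None passed the test, in a comparison where no gene at all was called. Genes known from striatal neurons varied widely within groups and averaged lower in VERCUR-CD than in VEH-CD, without passing the test. The dopamine receptor gene Drd2 was at 1161, 64.75 and 49.08 normalized counts in VERCUR-CD and at 1531, 536.9 and 527.1 in VEH-CD mice. Among VERCUR-WT mice it was 68.84, 75.02 and 1671, and among VEH-WT mice 543.6, 561.1 and 1429. The log2 differences of VERCUR-CD against VEH-CD were -2.28 for Drd2, -1.94 for the adenosine receptor gene Adora2a and -0.51 for the dopamine receptor gene Drd1 (adjusted p = 0.867, 0.867 and 0.88, limma). Whether Bc1 was related to these receptor genes across mice was not tested. In bulk tissue, fewer cells of a type and less RNA per cell cannot be told apart. The part of cell makeup, of the piece dissected or of the share of short RNA kept in each library was not tested.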

How the data were processed

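RNA was extracted from frontal cortex with an RNeasy column kit and mRNA libraries were read as pairs on an Illumina HiSeq, steps made for longer, polyadenylated RNA. The authors aligned reads with STAR 2.5.3a to GRCm38 and checked them with FastQC, per the labels. The deposited values are normalized counts, which are handled here as a score: reads per gene divided by a factor per library, with decimal commas. The counting program, annotation release and normalization are not given in the sources used here. Further tables, which hold expression as a ratio to the VEH-WT mice, were not used. Low values were whole multiples of a step in 100% of cases (tolerance 0.1 reads), which gave 40287647 to 56480949 reads per mouse. Bc1 rested on 303 to 5231 of them.

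Genes with a mean of at least 10 (17111 of 17202) were fitted in limma 3.58.1 (R 4.3.3) on log2(normalized count + 1), with 4 group means over 12 mice, an intensity trend and Benjamini-Hochberg adjustment. Fold changes are on that scale. Correlations and their permutations were computed in numpy 2.4.6, with ranks from scipy 1.17.1. All pairings were used for 9 mice (two-sided exact permutation test) and 100000 pairings for 12. A correlation pooled over the 12 mice had been planned, and the one over the 9 mice outside VERCUR-CD was chosen after the data were seen. Gene IDs were matched to GENCODE M21, ignoring version, for 17181 of 17202, and sequences were taken from its transcripts. The model and the permutation test were tested on simulated data.

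Genes, lists and comparisons were chosen with earlier results of these data known. Of each list, the text names genes called, the gene with the highest mean and the gene with the largest change of CD against WT, then the 5 genes with the highest and the 5 with the lowest correlation with Bc1. The replicates of a group are taken as separate animals from the study's methods, since the titles give only a replicate number. The limma p-values measure the spread between them. Alternatives were other pseudocounts, filters and scalings, a fit of the compared groups alone, no trend, adjusted p alone, a replicate block and leaving out each mouse. 1 gene of a marker list is not reported here, and that list is given gene by gene.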

Additional observations from a re-analysis of the deposited data

How the results depend on the processing

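Bc1 kept its direction in all 120 alternatives and, leaving out each mouse, ran from 1.78 to 2.30 in VERCUR-CD against VEH-CD. It lay past the call threshold in 7 of the 120 (4 without VERCUR-CD replicate 2, 2 without VEH-WT replicate 3 and 1 with the replicate block), which is a description since it was chosen on these values. No partner and no listed gene was called under any of 127 alternatives each, and the lowest adjusted p from limma was 0.379 for Fmr1, 0.34 for Cyfip1 and 0.332 for Cyfip2. The sign of small partner differences turned 18 times when single mice were left out, 9 of them without VERCUR-CD replicate 2, 2 each without VEH-CD replicate 2 and VERCUR-WT replicate 3, and 1 each without VEH-WT replicates 1 and 3, VEH-CD replicates 1 and 3 and VERCUR-WT replicate 1. Fmr1 then ran from -0.05 to 0.07 (CD against WT), -0.07 to 0.06 (VERCUR against VEH), -0.02 to 0.23 (VERCUR-CD against VERCUR-WT) and -0.03 to 0.22 (VERCUR-CD against VEH-CD). Cyfip1 ran from -0.02 to 0.11 (VERCUR-CD against VERCUR-WT) and -0.09 to 0.02 (VERCUR-WT against VEH-WT). Cyfip2 ran from -0.05 to 0.07, -0.02 to 0.09, -0.04 to 0.18 and -0.02 to 0.21 in the 4 comparisons given for Fmr1, in that order, and from -0.09 to 0.02 in VERCUR-WT against VEH-WT.

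Pooled over 12 mice, r of Bc1 was -0.01 with Fmr1, 0.25 with Cyfip1 and 0.04 with Cyfip2. Leaving out each mouse, it ran from -0.46 to 0.28 with Fmr1, from 0.07 to 0.54 with Cyfip1 and from -0.33 to 0.47 with Cyfip2, each time lowest without VERCUR-CD replicate 2 and highest without VERCUR-CD replicate 1. Without the 2 mice farthest from the median of Bc1, VERCUR-CD replicates 1 and 3, it was 0.42, 0.63 and 0.53 (permutation p = 0.21, 0.0509 and 0.127, adjusted 0.21, 0.153 and 0.191). With Fmr1 it was 0.04 after quantile normalization, and with Cyfip2 it was -0.55 for deviations within groups and -0.17 over the 9 mice outside VERCUR-CD. The cause was not tested.

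No pairing by replicate number was seen. Deviations of the 18 same-numbered pairs correlated at a median of 0.02 (from -0.35 to 0.27), and those of the 36 other pairs at -0.01 (from -0.23 to 0.32). Of 12 mice, 1 correlated best with its own number. With 3 mice per group, these values cannot exclude a pairing or a batch. With a replicate block, Bc1 differed by 2.07 (standard error 0.25) in VERCUR-CD against VEH-CD and Fmr1 by 0.11 (limma adjusted p = 0.864), and no call among the 3 partners changed. The planned edgeR test on recovered reads was not run, and the values were tested only as the normalized counts deposited.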
